A study of Mus musculus with 12 samples.

Results

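The EGF-family ligands and ErbB receptors were followed here through the 10 genes Egf, Areg, Ereg, Hbegf, Tgfa, Btc, Epgn, Egfr, Erbb2 and Erbb3, of which 7 encode ligands and 3 encode receptors. They were taken by symbol from a table of raw read counts for 57278 mouse genes, and each symbol matched 1 row. The RNA came from DDKC cells, which are pancreatic tumor cell lines isolated from tumor-bearing mice that were Dkk3-/- and carried Ptf1aCre/+, so that the untreated and the treated cells alike lacked Dkk3. The Cre was driven from Ptf1a, a gene of the pancreatic lineage. DDKC_9750, DDKC_9790 and DDKC_9804 were sequenced untreated or treated with recombinant DKK3 protein (rDKK3), which gave 6 groups of 2 libraries and 12 libraries in all. The study used the protein as a stand-in for DKK3 secreted by stromal fibroblasts, and the concentration and duration for these RNA samples were not given in the sources used here.

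The ligands are made as membrane-anchored precursors that proteases of the ADAM family cut free, and the soluble form binds EGFR on the same or a neighboring cell. ERBB2 has no known ligand of its own and signals in dimers with the other receptors, and ERBB3 has a weak kinase and signals mainly through its partners. In pancreatic cancer, EGFR signaling is known to contribute to early tumor formation. Several of the ligands are themselves induced by the RAS-ERK cascade, which closes a positive feedback loop.

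The untreated libraries held 7520741 to 24541083 counts and the rDKK3 libraries 3822987 to 11567095. Levels are given as CPM, which are counts scaled to library size with TMM factors. The floor of 3 counts in a library corresponded to between 0.127 and 0.754 CPM, which covers counting error only because the reads carried no molecular identifiers. Dkk3 itself had 0 counts in every library except 1 count in an rDKK3 library of DDKC_9750. The 2 libraries of a group carry a lower and a higher library number. Once a shift between these numbers was fitted for each gene, they differed by less than sampling noise (mean deviance 0.781 per degree of freedom, 6.44 without the shift). For this reason each pair entered means, SDs and the comparison over lines as 1 sample, with n = 3 lines. Fits described as the 12 libraries with the line count both libraries of a pair as separate samples. A pass in such a fit is therefore not evidence over n = 3 lines. Tests within a line, between untreated lines, or of the difference between lines' responses measure only the spread between these libraries, which may be technical, and "rose" and "fell" in a line are meant in that sense.

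Among 6 epithelial markers the keratins and Cdh1 were high, but Epcam averaged 0.845 to 2.08 CPM in all groups except rDKK3-treated DDKC_9804 (0.415 CPM). The summed epithelial level was 4824 to 9805 CPM in untreated and 3740 to 8120 CPM in rDKK3 libraries, and of the 6 markers 4, 3 and 4 fell in DDKC_9750, DDKC_9790 and DDKC_9804, against 17.9%, 13.9% and 25.3% of all genes. Krt19 and Krt7 were among those that fell in each line, whereas Cdh1 rose in DDKC_9750 (log2 fold change 0.40) and DDKC_9804 (0.19) and did not pass in DDKC_9790 (-0.12). The summed mesenchymal level (Vim, Fn1, Cdh2, Zeb1) was 7511 to 21122 and 7432 to 22719 CPM. Within it Vim fell in all 3 lines (log2 fold changes -0.70, -0.51 and -0.30) while Fn1 rose in all 3 (0.24, 0.18 and 0.17). Cdh2 fell in DDKC_9750 (-0.39) and rose in DDKC_9790 (0.36), and Zeb1 rose in DDKC_9804 (0.30). Of these 4 genes, 1, 2 and 2 rose and 2, 1 and 1 fell in DDKC_9750, DDKC_9790 and DDKC_9804. Of all genes, 17.9%, 12.3% and 20.1% rose and 17.9%, 13.9% and 25.3% fell. Markers of other cells were low, with sums of 6.36 to 13.4 and 5.18 to 12.02 CPM for 6 fibroblast, 2.00 to 23.3 and 2.76 to 39.1 CPM for 5 immune, 0.975 to 15.5 and 0.790 to 20.9 CPM for 3 endothelial, and 0.530 to 13.02 and 0.929 to 12.6 CPM for 4 acinar genes. Adgre1, Cd3e, Cpa1 and Ptf1a had 0 counts in every library. The immune sum was mainly Cd68, which rose in DDKC_9790 (0.71) and DDKC_9804 (1.34) and did not pass in DDKC_9750 (0.55). The endothelial marker Kdr rose in DDKC_9804 (from 8.01 to 18.01 CPM) and fell in DDKC_9790 (from 14.9 to 10.3 CPM). Of the fibroblast markers, Pdgfra fell in DDKC_9750 (from 1.71 to 0.646 CPM) and rose in DDKC_9804 (from 0.912 to 4.402 CPM), Pdgfrb fell in DDKC_9804 (from 4.20 to 0.522 CPM), and Col1a1 fell in DDKC_9750 (log2 fold change -0.77). The part of these markers in the results was not tested. In bulk RNA, fewer cells with a transcript and less of it per cell cannot be told apart.

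Of the 10 genes, 4 ligands lie together on chromosome 5 of GRCm39 within 375.531 kb, in the order Epgn (91175323 to 91183074), Ereg (91222481 to 91241505), Areg (91287458 to 91296291) and Btc (91505120 to 91550853, on the minus strand). The 3 other annotated genes in this span had few counts over the 12 libraries. They were Gm19610 with 620, Gm19619 with 20 and the small nuclear RNA gene Gm23092 with 0. Gm19610 is antisense to the start of Ereg, and the counting used strand. Further ligands lie on chromosome 6 (Tgfa, 86172205 to 86252701) and chromosome 3 (Egf, 129471214 to 129548965). The receptors lie on chromosome 11 (Egfr, 16702203 to 16868158, and Erbb2, 98303296 to 98328542) and chromosome 10 (Erbb3, 128403392 to 128425521).

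The sequence just before the transcription start is shown for Areg and Btc, 2 clustered ligands with a common pattern over the groups, and for Erbb2, a receptor that fell in DDKC_9804, where they rose. Each stretch is the 150 bases before the start on the gene's own strand, 5′ to 3′, from RefSeq promoters of build GRCm38.p6, at chr5:91139449-91139598 (Areg, plus strand), chr5:91402995-91403144 (Btc, minus strand) and chr11:98412334-98412483 (Erbb2, plus strand). This build differs from that of the counts, and 7 of the 10 genes matched the promoter table. Ereg, Hbegf and Erbb3 did not. Capitals mark a cAMP response element (TGACGTCA) and a TATA box (TATAAA).
Areg: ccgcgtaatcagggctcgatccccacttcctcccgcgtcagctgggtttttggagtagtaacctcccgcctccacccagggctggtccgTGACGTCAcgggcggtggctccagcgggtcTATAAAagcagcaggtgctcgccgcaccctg
Btc: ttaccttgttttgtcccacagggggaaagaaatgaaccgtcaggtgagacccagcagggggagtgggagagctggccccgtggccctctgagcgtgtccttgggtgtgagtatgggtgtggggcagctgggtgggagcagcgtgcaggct
Erbb2: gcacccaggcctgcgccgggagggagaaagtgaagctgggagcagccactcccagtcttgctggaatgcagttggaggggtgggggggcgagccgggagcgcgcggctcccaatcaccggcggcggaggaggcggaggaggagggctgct
The Areg promoter holds the cAMP response element 61 bases and the TATA box 31 bases before the start. Both strands of the whole window of 300 bases, which runs 50 bases past the start, were searched for these motifs and for the AP-1 site (TGACTCA). Of 32851 promoter windows, 1.79% held the cAMP response element, 5.2% the AP-1 site and 13.6% the TATA box. None of these letters was found in the windows of Btc, Erbb2, Tgfa, Egfr or Egf, and that of Epgn held a TATA box 86 bases before the start. A match describes the letters and does not show a bound site.

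Hbegf, which encodes heparin-binding EGF-like growth factor, lies on the minus strand of chromosome 18 (36637980 to 36648858). In DDKC_9750 it measured 191 and 184 CPM in the untreated and 106 and 105 CPM in the rDKK3 libraries. In DDKC_9790 the values were 361 and 349 CPM untreated and 365 and 371 CPM with rDKK3. In DDKC_9804 they were 633 and 607 CPM untreated and 1101 and 1086 CPM with rDKK3. Both treated libraries thus lay below both untreated ones in DDKC_9750 and above them in DDKC_9804, whereas in DDKC_9790 all 4 lay between 349 and 371 CPM, the treated ones above the untreated. Hbegf fell in DDKC_9750 (log2 fold change -0.83, standard error 0.04, adjusted p = 2.73e-07). All p-values are from the quasi-likelihood test of edgeR, adjusted over all genes by the Benjamini-Hochberg method, unless another tool is named. It rose in DDKC_9804 (0.82, standard error 0.04, adjusted p = 2.36e-07) and did not pass in DDKC_9790 (0.05, adjusted p = 0.396), where it passed with the library number as a covariate (0.06, adjusted p = 0.0379).

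Areg encodes amphiregulin, a lower-affinity EGFR ligand. In DDKC_9750 it went from 29.7 and 26.5 CPM to 8.54 and 6.95 CPM with rDKK3, which is 340 and 489 counts against 34 and 44. In DDKC_9790 it was 197 and 193 CPM untreated and 175 and 175 CPM treated. In DDKC_9804 it went from 65.0 and 63.1 CPM to 186 and 165 CPM. Treated DDKC_9804, with a mean of 176 CPM, was therefore close to DDKC_9790 in either condition, and treated DDKC_9750 was the lowest group. Areg fell in DDKC_9750 (log2 fold change -1.88, standard error 0.12, adjusted p = 1.02e-06) and rose in DDKC_9804 (1.45, standard error 0.07, adjusted p = 1.51e-07). Of all genes tested, 2.18% had a lower value than Areg in DDKC_9750, and 98% had a lower one in DDKC_9804. In DDKC_9790 its difference did not pass (-0.16, adjusted p = 0.103), although both treated libraries lay below both untreated ones. It passed there with the library number as a covariate (-0.15, adjusted p = 2.08e-05) and with every gene above 0 counts retained (-0.19, adjusted p = 0.0146).

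Btc encodes betacellulin, which also binds ERBB4. It measured 30.1 and 28.5 CPM in untreated and 10.05 and 9.001 CPM in treated DDKC_9750. In DDKC_9790 it was 132 and 121 CPM untreated and 119 and 115 CPM treated. In DDKC_9804 it was 115 and 113 CPM untreated and 197 and 189 CPM treated. The direction in each line was that of Areg. Btc fell in DDKC_9750 (log2 fold change -1.63, standard error 0.09, adjusted p = 3.52e-07) and rose in DDKC_9804 (0.76, standard error 0.05, adjusted p = 1.57e-06), and in DDKC_9790 it did not pass (-0.11, adjusted p = 0.161) except with the library number as a covariate (-0.10, adjusted p = 0.0436).

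Ereg encodes epiregulin. It measured 18.6 and 16.1 CPM untreated and 16.3 and 15.0 CPM treated in DDKC_9750, and these libraries overlapped. DDKC_9790 gave 51.8 and 44.8 CPM untreated and 47.4 and 46.2 CPM treated, which also overlapped. In DDKC_9804 it went from 60.4 and 56.3 CPM to 196 and 176 CPM, a ratio of 3.19 between the means and the highest such ratio among the 9 genes tested in any line. This rise passed (log2 fold change 1.68, standard error 0.08, adjusted p = 2.31e-07), and the differences in DDKC_9750 (-0.15, standard error 0.13, adjusted p = 0.434) and DDKC_9790 (-0.03, adjusted p = 0.948) did not.

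Tgfa encodes transforming growth factor alpha, the ligand long used in mouse models of acinar-to-ductal metaplasia. It measured 65.2 and 63.8 CPM untreated and 44.0 and 44.7 CPM treated in DDKC_9750. It was 94.9 and 92.3 CPM untreated and 99.4 and 84.4 CPM treated in DDKC_9790. In DDKC_9804 it was 44.1 and 42.6 CPM untreated and 43.3 and 44.2 CPM treated. Only the libraries of DDKC_9750 separated by treatment. Tgfa fell there (log2 fold change -0.54, standard error 0.08, adjusted p = 0.000303) and passed neither in DDKC_9790 (-0.03, adjusted p = 0.796) nor in DDKC_9804 (0.02, standard error 0.08, adjusted p = 0.886).

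Egf, the founding ligand of the family, was near the limit of detection, with 4 to 14 counts in each library. In DDKC_9750 it was 0.787 and 0.758 CPM untreated and 2.01 and 2.05 CPM treated. In DDKC_9790 it was 1.10 and 0.499 CPM against 1.12 and 0.611 CPM, and in DDKC_9804 it was 0.619 and 0.464 CPM against 0.861 and 1.06 CPM. Egf rose in DDKC_9750 (log2 fold change 1.39, standard error 0.41, adjusted p = 0.0246). This call was lost when any of that line's 4 libraries was left out (adjusted p between 0.0675 and 0.137), with DESeq2 (adjusted p = 0.352) and with all libraries thinned to 3822987 counts (adjusted p = 0.12), while the log2 fold change in these fits stayed between 1.36 and 1.47. Egf did not pass in DDKC_9804 (0.89, adjusted p = 0.16) or DDKC_9790 (0.19, adjusted p = 0.829). After thinning it passed in DDKC_9804 (log2 fold change 5.05, adjusted p = 0.0185) and among the untreated lines (adjusted p = 0.0212), from fewer counts still. Untreated DDKC_9804 then differed from DDKC_9750 by -4.59 and from DDKC_9790 by -5.10, against -0.55 and -0.46 in the main fit. Epgn, which encodes epigen, had 10 counts in all and at most 4 in a library, did not pass the filter on low counts and was not tested.

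Erbb2 encodes the ligandless co-receptor. DDKC_9750 gave 157 and 163 CPM untreated and 150 and 154 CPM treated. DDKC_9790 gave 71.7 and 75.4 CPM untreated and 79.7 and 78.1 CPM treated. DDKC_9804 went from 153 and 148 CPM to 78.0 and 78.5 CPM, so that its treated libraries stood at the level of DDKC_9790. Erbb2 fell in DDKC_9804 (log2 fold change -0.94, standard error 0.04, adjusted p = 1.4e-07), a difference in the opposite direction to those of Hbegf, Areg, Btc and Ereg in the same libraries. It did not pass in DDKC_9750 (-0.07, adjusted p = 0.194) or DDKC_9790 (0.10, adjusted p = 0.222).

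Erbb3 encodes the receptor that binds neuregulins. It measured 36.6 and 35.4 CPM untreated and 28.4 and 25.9 CPM treated in DDKC_9750. DDKC_9790 gave 132 and 134 CPM untreated and 142 and 130 CPM treated. In DDKC_9804 it was 21.6 and 20.3 CPM untreated and 15.9 and 15.1 CPM treated, from 74 and 114 counts. The treated libraries lay below the untreated ones in DDKC_9750 and DDKC_9804 and overlapped with them in DDKC_9790. Erbb3 fell in DDKC_9750 (log2 fold change -0.41, standard error 0.07, adjusted p = 0.0011) and in DDKC_9804 (-0.43, standard error 0.08, adjusted p = 0.0014). Both calls missed the threshold without the second rDKK3 library of the line (adjusted p = 0.0586 and 0.0706) and with DESeq2 (adjusted p = 0.0509 and 0.0607). The call in DDKC_9804 also did with libraries thinned to equal depth (adjusted p = 0.0827). In these fits the log2 fold changes were -0.34 and -0.40 in DDKC_9750 and -0.39, -0.40 and -0.40 in DDKC_9804.

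Egfr encodes the receptor of all the ligands above. It measured 48.2 and 44.1 CPM untreated and 65.1 and 60.8 CPM treated in DDKC_9750. DDKC_9790 gave 57.2 and 52.9 CPM untreated and 60.8 and 55.2 CPM treated. DDKC_9804 gave 70.9 and 65.1 CPM untreated and 67.4 and 64.1 CPM treated. Only DDKC_9750 separated by treatment, and with rDKK3 the 3 lines lay between 55.2 and 67.4 CPM. Egfr rose in DDKC_9750 (log2 fold change 0.45, standard error 0.08, adjusted p = 0.0013) and did not pass in DDKC_9790 (0.08, adjusted p = 0.525) or DDKC_9804 (-0.05, standard error 0.07, adjusted p = 0.687).

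**Figure D1:**
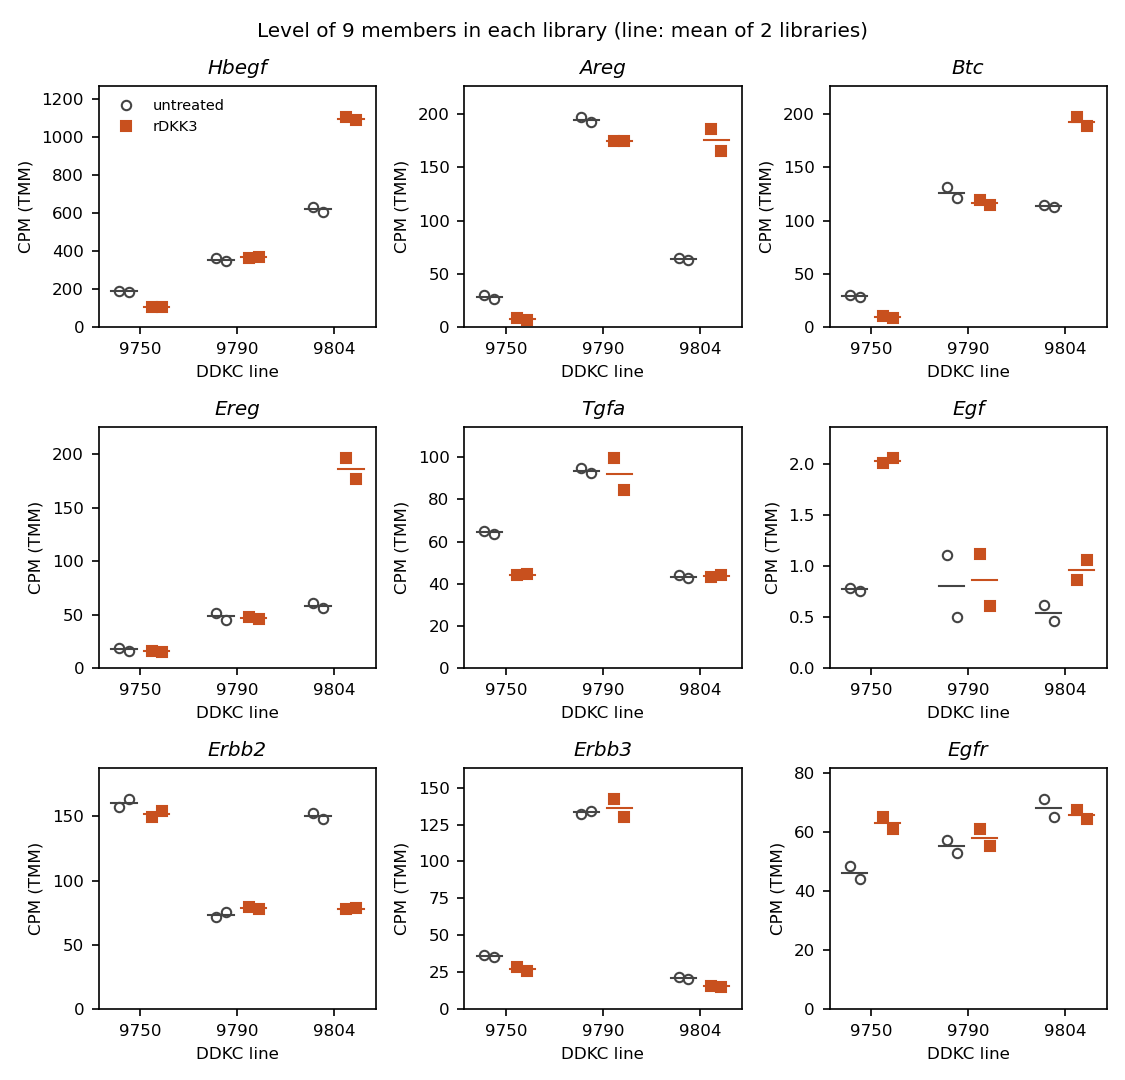
Level of 9 of the 10 genes in CPM (linear axis from 0) in each of the 12 libraries, by DDKC line, with open circles for untreated and filled squares for rDKK3 libraries and a bar at the mean of each 2. Hbegf, Areg and Btc lie lower with rDKK3 in DDKC_9750 and higher in DDKC_9804, and Erbb2 drops to 78.2 CPM in treated DDKC_9804.

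Counted over the 9 genes tested, DDKC_9750 had 2 that rose (Egf and Egfr) and 5 that fell (Hbegf, Areg, Btc, Tgfa and Erbb3), against 17.9% of all 15165 genes tested that rose and 17.9% that fell. DDKC_9790 had 0 in either direction, against 12.3% higher and 13.9% lower, and 1 of the 9 had an unadjusted p under 0.05. DESeq2 also called 0 there, and 1 fell with no filter on low counts (Areg). With the library number as a covariate, 1 rose (Hbegf) and 2 fell (Areg and Btc). Of all genes, 3975 passed in DDKC_9790 in the main fit, 1259 with DESeq2 and 6066 with that covariate. DDKC_9804 had 4 that rose (Hbegf, Areg, Btc and Ereg) and 2 that fell (Erbb2 and Erbb3), against 20.1% higher and 25.3% lower. The median log2 fold change of the 6 ligands tested was -0.68 in DDKC_9750, -0.03 in DDKC_9790 and 0.86 in DDKC_9804, beside -0.02, -0.01 and -0.04 for all genes. For the 3 receptors it was -0.07, 0.08 and -0.43 in the same order.

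The responses differed between lines for 8 of the 9 genes in the test of an interaction of line and treatment, in which 49.3% of all genes passed. The adjusted p was 1.06e-07 for Hbegf, 1.4e-07 for Areg, 2.32e-07 for Btc and 3.31e-06 for Ereg. It was 0.00249 for Tgfa, 1.36e-06 for Erbb2, 0.00221 for Erbb3 and 0.00879 for Egfr. Egf did not pass (adjusted p = 0.31). With DESeq2 the calls of Egfr (adjusted p = 0.117) and Erbb3 (adjusted p = 0.138) were lost. Within each line and library number the treated library held fewer counts than the untreated one, and the lower and higher library numbers form a split that treatment does not follow. Thinned to equal depth, Areg gave -1.67 in DDKC_9750 and 1.41 in DDKC_9804, and Hbegf gave -0.83 and 0.82. Within the lower and the higher library numbers, Areg gave -1.80 and -1.93 in DDKC_9750 and 1.52 and 1.39 in DDKC_9804.

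Over the 3 lines, with the 2 libraries of a group summed and the line as a block, 0 of the 9 genes passed, against 0.00659% of all genes (1 gene, Lcn2). None of the 9 had an unadjusted p under 0.05 in this fit, and DESeq2 on the same sums called 0 as well. Hbegf averaged 387 ± 218 CPM untreated and 522 ± 512 CPM with rDKK3 (SD, n = 3 lines), with a log2 fold change of 0.03 and a 95% interval of -0.77 to 0.84. Areg averaged 95.6 ± 87.7 and 119 ± 96.7 CPM (SD, n = 3), with -0.09 and an interval of -1.65 to 1.46. Both intervals include 0. The log2 fold changes of Areg were 0.65 without DDKC_9750 and -0.90 without DDKC_9804. Those of Hbegf were 0.46 and -0.37.

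The other ligands gave log2 fold changes over the lines of -0.24 for Btc (interval -1.36 to 0.88), 0.53 for Ereg (-0.46 to 1.51), -0.18 for Tgfa (-0.55 to 0.20) and 0.88 for Egf (-0.24 to 2.00). The receptors gave -0.30 for Erbb2 (-0.86 to 0.26), -0.26 for Erbb3 (-0.61 to 0.09) and 0.17 for Egfr (-0.18 to 0.52). Adjusted p-values lay between 0.628 for Egf and 0.979 for Hbegf. With the 12 libraries taken as separate samples and the line in the model, 18.1% of all genes passed and still 0 of these 9. The lowest adjusted p-values there were 0.0584 for Erbb3 and 0.0699 for Egf. With the library number added as a covariate, Egf passed (log2 fold change 0.87, adjusted p = 0.0488), as did 3124 of all genes against 2744 without it. Two-sided exact permutation over 3 pairs cannot give a p below 0.25.

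**Figure D2:**
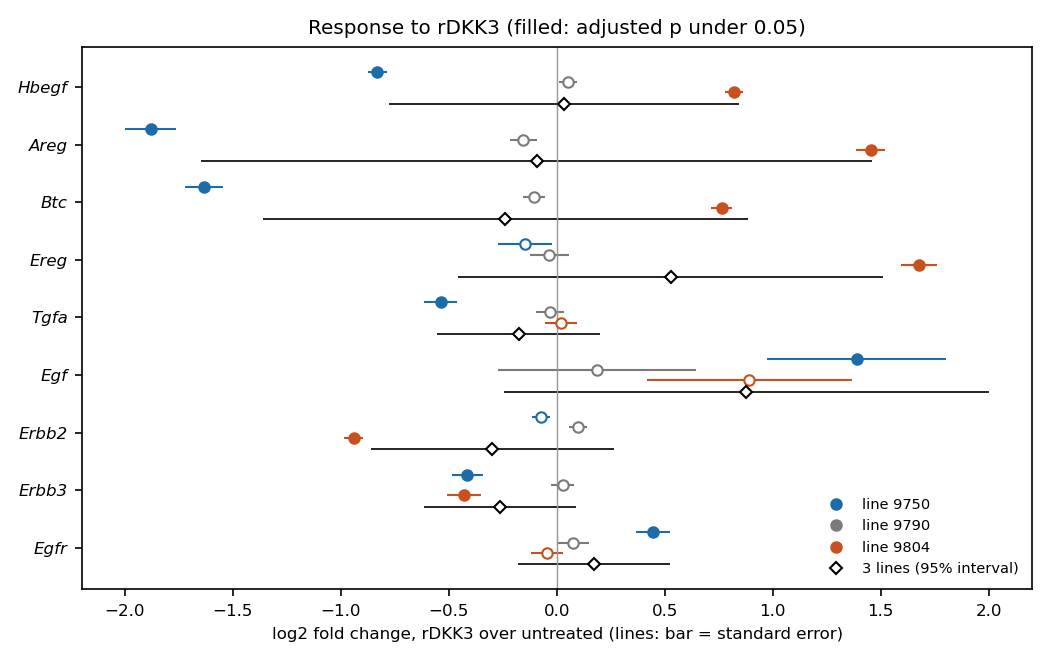
Log2 fold change of rDKK3 over untreated for 9 genes (horizontal axis), with circles for each line and their standard errors, filled where the adjusted p was under 0.05, and open diamonds for the fit over 3 lines with its 95% interval. Hbegf, Areg and Btc are filled on opposite sides of 0 in DDKC_9750 and DDKC_9804, and every interval over the lines includes 0.

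Before treatment the lines already differed. Levels among the untreated lines differed for 8 of the 9 genes, all but Egf (adjusted p = 0.449), in a test that 80.5% of all genes passed. DDKC_9750 was lowest for Hbegf, Areg, Btc and Ereg, with 3.31-fold, 6.93-fold, 4.31-fold and 3.36-fold between the highest and lowest line mean. Hbegf and Ereg were highest in DDKC_9804, and Areg, Btc and Tgfa in DDKC_9790. Erbb3 spanned 6.37-fold, with 133 CPM in DDKC_9790, 36.0 CPM in DDKC_9750 and 20.9 CPM in DDKC_9804. Erbb2 had the reverse position in DDKC_9790, at 73.5 CPM against 160 CPM in DDKC_9750 and 150 CPM in DDKC_9804.

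In the pairwise tests of untreated lines, 8 of the 9 genes differed between DDKC_9790 and DDKC_9750 (67.5% of all genes), 7 between DDKC_9804 and DDKC_9750 (58.5%) and 8 between DDKC_9804 and DDKC_9790 (65.7%). Erbb2 did not pass between DDKC_9804 and DDKC_9750 (log2 difference -0.09, standard error 0.04, adjusted p = 0.0625). It did with the library number as a covariate (-0.10, adjusted p = 0.00076) and without the second untreated (adjusted p = 0.0379) or the second rDKK3 library of DDKC_9790 (adjusted p = 0.0432). The neighbors closest in level that passed were Btc between DDKC_9804 and DDKC_9790 (-0.15, adjusted p = 0.0229), Ereg between the same lines (0.28, adjusted p = 0.0142), and Egfr between DDKC_9790 and DDKC_9750 (0.25, adjusted p = 0.0114) and between DDKC_9804 and DDKC_9790 (0.31, adjusted p = 0.00346). With DESeq2 none of these 4 passed (adjusted p = 0.121, 0.18, 0.069 and 0.0997), with log2 differences of -0.19, 0.23, 0.29 and 0.26. After thinning the first 3 did not pass (adjusted p = 0.0515, 0.0831 and 0.215), with differences of -0.17, 0.27 and 0.15. Btc was also lost with no filter (adjusted p = 0.0578). Btc also missed the threshold without the first untreated library of DDKC_9790 (-0.09, adjusted p = 0.163) or of DDKC_9804 (adjusted p = 0.0538). Ereg did so without the second untreated library of DDKC_9790 (0.10, adjusted p = 0.381) or the first of DDKC_9804 (adjusted p = 0.0724). For Egfr between DDKC_9790 and DDKC_9750 the libraries were the second untreated one of DDKC_9750 (adjusted p = 0.099) and the first of DDKC_9790 (adjusted p = 0.0683), and between DDKC_9804 and DDKC_9790 it was the second of DDKC_9790 (0.18, adjusted p = 0.128). Leaving out any single library turned none of these 4 differences to the other sign. With rDKK3 the highest and lowest line means stood further apart, at 22.7-fold for Areg, 20.3-fold for Btc, 11.9-fold for Ereg, 10.4-fold for Hbegf and 8.77-fold for Erbb3. They stood closer for Egfr (1.47-fold untreated and 1.13-fold with rDKK3), Erbb2 (2.18-fold and 1.94-fold) and Tgfa (2.16-fold and 2.10-fold).

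To compare levels between genes, CPM were divided by exon length, taken as the union of exons over a gene's transcripts in the GENCODE basic set. This length was 11181 bases for Egfr, 5105 for Erbb2 and 1222 for Areg. Where the transcripts present are shorter than the union, the value is too low. Which transcripts were present was not tested, so the order and shares below depend on this choice of length. Averaged over the 6 groups, Hbegf was the highest at 172 CPM per kb, followed by Areg at 88.0, Btc at 33.8, Erbb2 at 22.6, Ereg at 14.0, Tgfa at 13.5, Erbb3 at 10.2 and Egfr at 5.31 CPM per kb. Egf stood at 0.173 and Epgn at 0.0477 CPM per kb. Summed over the 7 ligands, the level went from 122 to 62.8 CPM per kb with rDKK3 in DDKC_9750, from 368 to 352 in DDKC_9790 and from 348 to 674 in DDKC_9804. The summed receptors went from 41.5 to 39.9 CPM per kb, from 41.4 to 43.2 and from 39.0 to 23.8 in the same order. These sums are descriptions of single lines.

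The make-up of both sums differed by line. Hbegf held 58.2% of the ligand sum in untreated DDKC_9750 and 67.2% in DDKC_9804, whereas in DDKC_9790 Areg held 43.4% and Hbegf 36.4%. Erbb2 held 75.7% of the receptor sum in untreated DDKC_9750 and 75.5% in DDKC_9804, and Erbb3 held 53.4% in DDKC_9790. In DDKC_9804 the share of Egfr in the receptor sum was 15.6% untreated and 24.7% with rDKK3, while its own level did not pass the test.

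**Figure D3:**
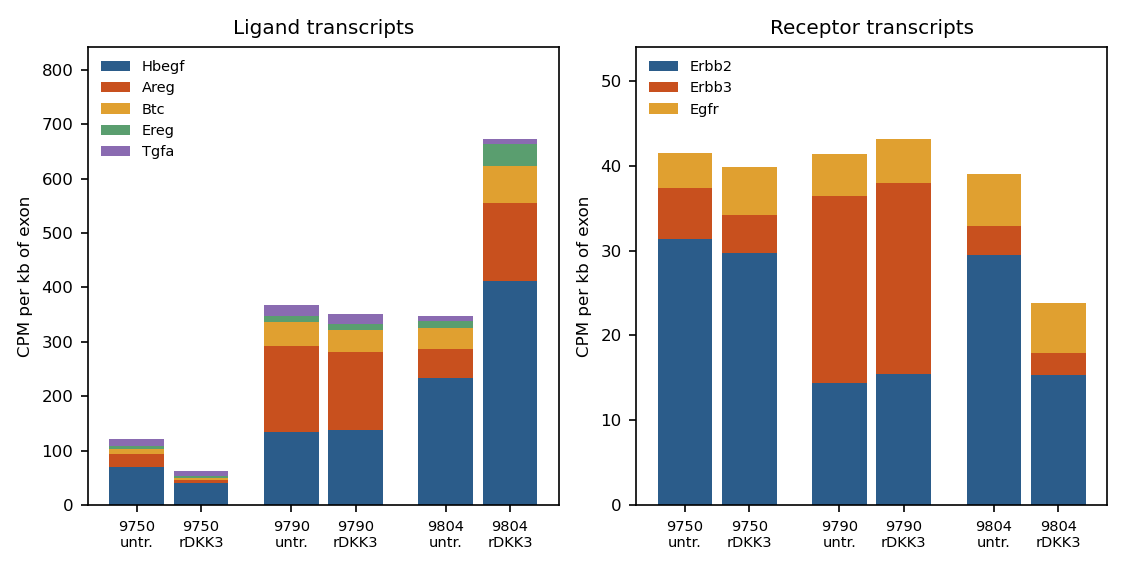
Transcript level in CPM per kb of exon (linear axis from 0), stacked by gene, for 5 ligands (left) and 3 receptors (right) in each line, untreated and with rDKK3, as the mean of 2 libraries. The ligand bars shorten in DDKC_9750 and lengthen in DDKC_9804 with rDKK3, and the receptor bar of treated DDKC_9804 is the shortest at 23.8 CPM per kb.

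Over the 6 combinations of line and condition, which share the same lines, the mean log2 CPM of Areg and Btc correlated at r = 0.958, that of Ereg and Hbegf at 0.963, and that of Areg and Ereg, which are neighbors on chromosome 5, at 0.778. Tgfa correlated at 0.967 with Erbb3, which lies on another chromosome, and Areg at -0.855 with Erbb2. Among 12425 other protein-coding genes, patterns among the closest to Hbegf were those of Aldh1a3, a retinaldehyde dehydrogenase (r = 0.998), and Bbx (0.997). Closest to Erbb2 were Eef1akmt1 (0.992), Hypk (0.991) and Wdr35 (0.989). With 6 points and this many genes, such values are descriptions of pattern.

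The soluble ligands are released by shedding, and 10 genes of sheddases and ligand trafficking were all tested. The list includes Timp3, an inhibitor of sheddases, so a fall is not always less shedding machinery. Timp3 fell in DDKC_9804 (-0.47, adjusted p = 0.000115) and did not pass in DDKC_9750 (-0.13) or DDKC_9790 (0.15). In DDKC_9750, DDKC_9790 and DDKC_9804, 5, 1 and 4 of them rose and 3, 4 and 3 fell. Over all genes, 17.9%, 12.3% and 20.1% rose and 17.9%, 13.9% and 25.3% fell in these lines. The median log2 fold change of the list was 0.06, -0.11 and 0.14. In DDKC_9790, 0 rose and 1 fell with DESeq2 and after thinning, and 0 rose without the second untreated library. There 1 fell without the second rDKK3 library, and 2 rose with the library number as a covariate. Of all genes, 1259, 1858, 2350, 2441 and 6066 passed in these fits in that order, against 3975 in the main fit. Rhbdf2, an inactive rhomboid protein that carries ADAM17 to the cell surface, was the only list member named by the rule. It measured 79.4, 52.3 and 79.1 CPM in untreated DDKC_9750, DDKC_9790 and DDKC_9804 and 107, 62.1 and 127 CPM with rDKK3. It rose within each line (log2 fold changes 0.44, 0.25 and 0.68, adjusted p = 8.49e-05, 0.00667 and 3.06e-06). In DDKC_9790 it was the 1 gene of the list that rose. Its call there was thus lost with DESeq2, after thinning and without the second untreated library. Over the 3 lines its value of 0.46 did not pass (adjusted p = 0.578). In the 12 libraries with the line, where the 2 libraries of a group count as separate samples, it did (adjusted p = 0.00146).

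In the neuregulin branch, Erbb4 and Nrg3 had 0 counts in every library and 3 of 5 genes were tested. In DDKC_9750 1 rose, in DDKC_9790 1 fell, and in DDKC_9804 1 rose and 2 fell, against 17.9%, 12.3% and 20.1% of all genes that rose and 17.9%, 13.9% and 25.3% that fell. Nrg1, the most abundant of them and named after its values were seen, measured 20.6, 16.8 and 12.1 CPM in the untreated and 41.0, 12.5 and 19.7 CPM in the treated lines. It rose in DDKC_9750 (0.99, adjusted p = 1.88e-06) and DDKC_9804 (0.72, adjusted p = 3.44e-05) and fell in DDKC_9790 (-0.43, adjusted p = 0.00333). Nrg2 measured 2.95, 0.0312 and 1.13 CPM untreated and 1.87, 0 and 0.133 CPM treated in DDKC_9750, DDKC_9790 and DDKC_9804. Nrg4 measured 13.6, 9.02 and 5.47 CPM against 11.8, 8.38 and 3.17 CPM. Both fell in DDKC_9804 (adjusted p = 0.0153 and 0.006) and neither passed in the other lines or over the 3 lines (adjusted p = 0.617 and 0.658). With DESeq2, 0 of the branch fell in DDKC_9804 and 0 in DDKC_9790. Of all genes, 3698 passed in DDKC_9804 and 1259 in DDKC_9790 with DESeq2, against 6882 and 3975 in the main fit. In DDKC_9804 1 fell after thinning, without the second untreated library or without the first rDKK3 library, and in DDKC_9790 0 fell without the second rDKK3 library.

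Of 12 receptor adaptors, 2, 4 and 5 rose in DDKC_9750, DDKC_9790 and DDKC_9804 and 0, 0 and 2 fell, beside the same shares of all genes (17.9%, 12.3% and 20.1% higher, 17.9%, 13.9% and 25.3% lower). The list's median log2 fold change over the 3 lines was 0.16. In DDKC_9790 the 4 that rose were 1 with DESeq2 or without the first rDKK3 library, and 2 after thinning or without the second untreated or second rDKK3 library. In DDKC_9804 the 2 that fell were 1 with DESeq2, after thinning, or without the second untreated or second rDKK3 library. With the library number as a covariate, 4 rose in DDKC_9750 and 2 fell in DDKC_9790. Of all genes, 3975 passed in DDKC_9790 in the main fit, 1259 with DESeq2, 1858 after thinning and 6066 with the covariate. Without 1 of the libraries of DDKC_9790 just named, 2350 to 2454 passed there. In DDKC_9804, 6882 passed in the main fit and 3698 with DESeq2. The all-gene counts of DDKC_9750 with the covariate and of DDKC_9804 after thinning are not given here. Gab2, a docking protein, gave 0.50 over the lines (adjusted p = 0.58) and 0.19, 0.32 and 0.92 by line, and passed in the 12 libraries with the line (adjusted p = 0.0125). Ptpn11, which encodes the phosphatase SHP2, gave 0.17 (adjusted p = 0.708), and Eps8 gave 0.16 (adjusted p = 0.705). Of 10 receptor inhibitors and receptor ubiquitin ligases, 3, 3 and 5 rose and 2, 0 and 1 fell in the same lines, against the same shares of all genes. In DDKC_9790 the 3 that rose were 1 with DESeq2 or after thinning. The count was 0 without the second untreated library and 6 with the library number as a covariate. Of all genes, 1259, 1858, 2350 and 6066 passed in these fits in that order, against 3975 in the main fit. Cblb, a ubiquitin ligase of activated receptors, gave 0.52 over the lines (adjusted p = 0.618) and rose in DDKC_9804 (1.19, adjusted p = 1.23e-06). Socs4 gave 0.23 (adjusted p = 0.624). In the 12 libraries with the line, Cblb (adjusted p = 0.0402) and Socs4 (adjusted p = 0.0449) passed. So did Lrig1 (0.47, adjusted p = 0.0464), which the rule for named genes leaves out and which gave 1.00, -0.12 and 0.51 by line.

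Of the 10 genes of the RAS-RAF-MEK-ERK cascade, 2, 1 and 1 rose and 4, 0 and 3 fell in DDKC_9750, DDKC_9790 and DDKC_9804. Of all genes, 17.9%, 12.3% and 20.1% rose and 17.9%, 13.9% and 25.3% fell. In DDKC_9750, 1 rose with DESeq2 and after thinning. Of all genes, 2794 passed there with DESeq2, against 5431 in the main fit. In DDKC_9790, 1 fell with no filter, and 1 to 2 fell without 1 of 5 libraries of the other lines (either untreated library of DDKC_9750, either rDKK3 library of DDKC_9804 or its second untreated library, the last giving 2). The single rise in DDKC_9790 was lost with DESeq2, RLE size factors, no filter or thinning, and without any of that line's 4 libraries or the second untreated library of DDKC_9804. With the library number as a covariate, 4 fell in DDKC_9790, and 3 rose and 5 fell in DDKC_9804. Of all genes, 6066 passed in DDKC_9790 with this covariate, against 3975 in the main fit. The all-gene counts of DDKC_9804 with the covariate or RLE size factors are not given here, and 6882 passed there in the main fit. In DDKC_9804, 2 rose with RLE size factors or without any 1 of 5 libraries (the first or second rDKK3 library of DDKC_9750, the second untreated or second rDKK3 library of DDKC_9790, or the second untreated library of DDKC_9804). Braf gave a log2 fold change of 0.41 over the lines (adjusted p = 0.585), Hras -0.31 (adjusted p = 0.63) and Nras -0.20 (adjusted p = 0.672). In the 12 libraries with the line, Braf (adjusted p = 0.0175) and Hras (adjusted p = 0.0379) passed and Nras did not (adjusted p = 0.0518). Hras fell in DDKC_9804 (-0.68, adjusted p = 1.05e-05), and Nras fell in DDKC_9750 (-0.46, adjusted p = 0.000364).

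The 16 ERK-induced transcripts, which are commonly read as output of this cascade, were all tested. In DDKC_9750, 13 fell and 0 rose, against 17.9% of all genes in either direction, with a median log2 fold change of -0.91 beside -0.02 for all genes. In DDKC_9790, 5 fell (13.9% of all genes) and 3 rose (12.3%), with a median of 0.02. In DDKC_9804, 4 fell (25.3%) and 7 rose (20.1%), with a median of -0.02. In DDKC_9790, 3 fell after thinning, and 6 rose with the library number as a covariate. Of all genes, 1858 and 6066 passed in these fits, against 3975 in the main fit. DESeq2 called the same number of 13 in DDKC_9750, where it called 2794 of all genes against 5431 in the main fit. Over the 3 lines 0 of the 16 passed, and with the 12 libraries 2 fell and 0 rose, where 18.1% of all genes passed.

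By the rule for named genes, Dusp6, Spry2 and Ier3 are given. Dusp6, a phosphatase of ERK, measured 437, 475 and 880 CPM in untreated DDKC_9750, DDKC_9790 and DDKC_9804 and 212, 405 and 666 CPM with rDKK3. It fell in each line (log2 fold changes -1.04, -0.23 and -0.40, adjusted p = 1.38e-07, 0.00602 and 7.51e-05). Ier3, an early response gene, also fell in each line (-0.72, -0.19 and -0.39). Spry2, a feedback inhibitor, fell in DDKC_9750 (-1.17) and DDKC_9790 (-0.22) and did not pass in DDKC_9804 (-0.06, adjusted p = 0.394). Over the 3 lines, the values of -0.54, -0.42 and -0.47 for Dusp6, Ier3 and Spry2 did not pass (adjusted p = 0.578, 0.578 and 0.633).

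Of the 16 transcripts, 6 fell in DDKC_9750 and rose in DDKC_9804, namely Fosl1, Dusp5, Epha2, Ccnd1, Plaur and Spred2, a grouping made after their values were seen. Of all genes tested, 4.91% fell in DDKC_9750 and rose in DDKC_9804, and of the 9 ligand and receptor genes 3 did (Hbegf, Areg and Btc). Fosl1, which encodes the AP-1 subunit FRA1, fell by 1.74 in DDKC_9750 and rose by 1.12 in DDKC_9804 on the log2 scale. Dusp5, a nuclear ERK phosphatase, fell by 1.67 and rose by 0.86, and Epha2, an ephrin receptor, fell by 1.29 and rose by 0.68. Ccnd1, which encodes cyclin D1, fell by 0.81 and rose by 0.67. Plaur, the urokinase receptor gene, fell by 0.33 and rose by 0.27, and Spred2, a RAS pathway inhibitor, fell by 0.42 and rose by 0.21. In DDKC_9790, Ccnd1 rose (0.23, adjusted p = 0.00449), Plaur fell (-0.27, adjusted p = 0.00261), and the other 4 did not pass. Dusp6 and Ier3 fell in all 3 lines.

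**Figure D4:**
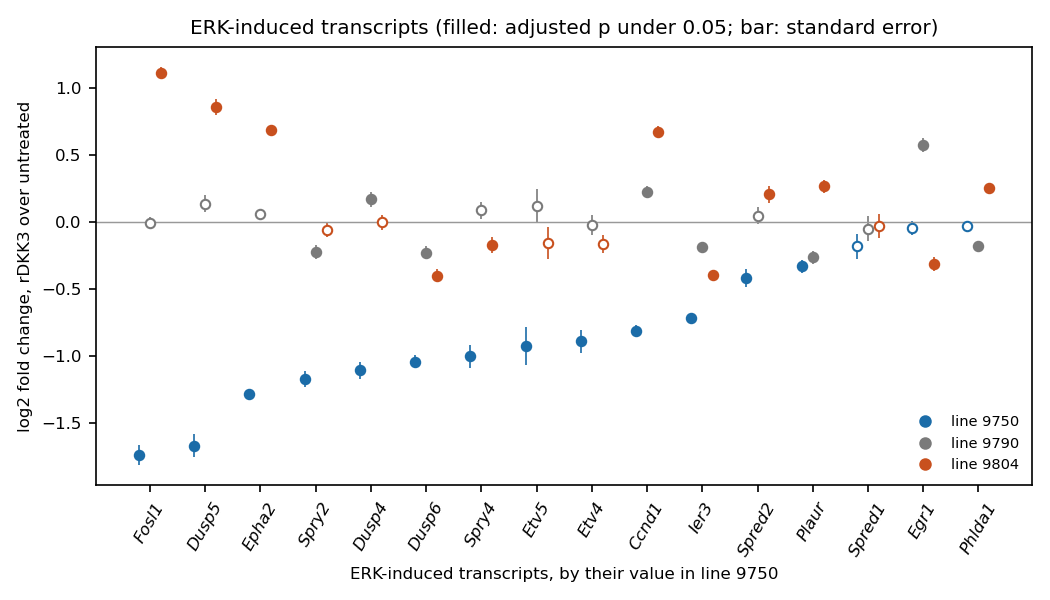
Log2 fold change of rDKK3 over untreated (vertical axis) for 16 ERK-induced transcripts in each line, ordered by DDKC_9750, with standard errors and filled circles where the adjusted p was under 0.05. In DDKC_9750 no value lies above 0, and Fosl1, Dusp5, Epha2 and Ccnd1 lie above 0.5 in DDKC_9804.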

How the data were processed

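The 12 RNA-seq libraries covered 3 DDKC tumor cell lines with and without rDKK3. The authors prepared directional libraries, aligned read pairs of 50 bases with STAR 2.7.9a to GRCm39, counted alignments on genes of GENCODE M32 by strand, and deposited raw counts per gene without normalization. Versions are from the submitters' processing notes. The authors' own test was DESeq2 1.38.0, and its model formula is not given in the sources used here.

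The members and gene lists were chosen with earlier results of these data known. Named list genes were those passing over the lines, plus up to 3 per list with the largest log2 fold change over the lines among those of the same sign in all 3 lines and with a mean of at least 1 CPM. Tests used R 4.3.3 and edgeR 4.0.16 (quasi-likelihood test, TMM, Benjamini-Hochberg adjustment over the 15165 genes kept by filterByExpr, threshold 0.05). Over the lines, the counts of the 2 libraries of a group were summed, and the line was a block. The treated and untreated samples of a line are the same cell line, and their deviations from the condition means correlated at 0.819, 0.872 and 0.801. Within lines, between untreated lines and for the interaction, 1 fit of 6 group means on 12 libraries was used, in which a library's spread is shared over groups. Standard errors are the log2 fold change divided by the square root of F. Mean log2 CPM for the correlations used a prior count of 2. Exon lengths are from GENCODE M39 on GRCm39, a later release than that used for counting. Gene positions are those deposited with the counts. No value column was left without a library. An allele that all groups share and 1 of the 3 genes most like Hbegf are not reported here. The tests were also run on simulated counts, with the same change in every line or a change in a single line, and with libraries drawn independently. These settings differ from the data, and the outcome is not given here.

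Alternatives were DESeq2 1.42.0, RLE size factors, no filter beyond a count above 0, the library number as a covariate or a split, thinning, a prior count of 0.5, leaving out each line or library, and fits without the line. Total counts of 3822987 to 24541083 per library set the precision.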

Additional observations from a re-analysis of the deposited data

Results flagged for a closer look

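The response to rDKK3 differed between the 3 lines for 8 of the 9 genes tested, tested in edgeR as an interaction of line and treatment. The p adjusted over all genes was 1.4e-07 for Areg, 3.31e-06 for Ereg, 1.06e-07 for Hbegf, 0.00249 for Tgfa, 2.32e-07 for Btc, 0.00879 for Egfr, 1.36e-06 for Erbb2 and 0.00221 for Erbb3. Of all genes, 49.3% passed this test. It measures the spread between the 2 libraries of a group, and a line and the culture it was sampled from cannot be told apart. Hbegf, Areg and Btc moved in opposite directions in DDKC_9750 and DDKC_9804 in both libraries of each. Groups of 2 libraries are too small to look for a library far from the others.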

How the results depend on the processing

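No member reversed its direction with a call in any alternative. Of 459 values of a member in a line under an alternative, 443 stayed on their side of the threshold, 11 lost the call and 5 gained it. Some values that did not pass changed sign, such as Ereg in DDKC_9790 (-0.17 to 0.06 without a library). The calls of Hbegf, Areg and Btc in DDKC_9750 and DDKC_9804, and of Ereg and Erbb2 in DDKC_9804, held in each one. TMM and RLE moved the median of all genes in a line by less than 0.1 on the log2 scale.

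Over the 3 lines, 0 members passed in the summed fit, and 1 (Egf, adjusted p = 0.0488) rose in the 12 libraries with the line as replicate block and the library number as covariate. Fits on the 12 libraries count the 2 libraries of a group as separate samples. All-gene counts there were 1 in the summed fit, 2744 in the 12 libraries with the line as replicate block, 3124 with the library number added, 0 in both fits with no replicate block, 95 with DESeq2, 90 with no filter, 6 with the lower library numbers, 5 after thinning, and 0 to 2 without a line.

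In DDKC_9750, 1 member rose in place of 2 with DESeq2 and after thinning, and 1 to 2 without a library. In DDKC_9804, 1 member fell in place of 2 with DESeq2 and after thinning, and 1 to 2 without a library. In DDKC_9790, where 0 passed, 1 fell with no filter, and with the library number as covariate 3 passed, 1 higher and 2 lower. With DESeq2, all-gene counts were 2794 in DDKC_9750 (5431 with edgeR), 1259 in DDKC_9790 (3975), 3698 in DDKC_9804 (6882) and 3678 for the interaction (7474). DDKC_9790 had 6066 with the library number as covariate, 1858 after thinning and 2350 to 3874 without a library. For DDKC_9750 and DDKC_9804, all-gene counts after thinning, with RLE size factors and with the covariate are not given here. Changes of list counts in those fits thus lack that comparison. The interaction had 4868 after thinning. The cause of these changes was not tested.

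Whether the 2 libraries of a group came from separate cultures is not stated, so tests within a line do not extend to other cultures. With 3 lines that moved apart, the fit over lines leaves wide intervals. Depth limits Egf, with 4 to 14 counts in a library, and Epgn.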
